A study of Arabidopsis thaliana with 14 samples.

Results

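The cytochrome P450 genes of Arabidopsis thaliana were followed in root segments in which auxin induces lateral roots. Members were the probe sets of the Affymetrix ATH1 array whose annotation names 1 gene with a symbol made of CYP, a family number, 1 or 2 subfamily letters and a gene number, a form that leaves out the cyclophilins. This rule found 22 probe sets for 22 genes among 22746 probe sets of the array. The annotation table gave a single gene for 13513 of these, more than 1 gene for 503 and no gene for 8730. A current RefSeq gene table lists 225 genes with such a symbol, so the other P450 genes were not analysed here, and 2 further probe sets were left out because their annotation names several genes. The rule used no measured value.

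The name P450 family is wider than what was measured. Of the 22 genes, 18 belong to 1 subfamily, CYP71B, and 3 (CYP78A9, CYP79A2 and CYP84A4) to other families of the same A-type clan, CYP71. Only CYP51G2 comes from another clan, CYP51, and no gene of the clans CYP72, CYP85, CYP86, CYP74, CYP97, CYP710 or CYP711 was among the members. The hormone P450s of the lists used here (brassinosteroid, gibberellin, abscisic acid, cytokinin, jasmonate and strigolactone) therefore had 0 members named in the annotation table, which does not show that the array lacks probe sets for them.

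Each of the 7 groups had 2 arrays, and the treatments were repeated biologically. Before the treatments all seedlings, of both genotypes, had spent 3 days on medium with 10 µM NPA, which blocks the transport of auxin. The wild type Col-0 made up 4 groups (0 h, 2 h of NAA, 6 h of NAA, and 6 h of mock treatment), and slr-1 the other 3 (0 h, 2 h of NAA, 6 h of NAA). It is a mutant with a dominant mutation of the auxin repressor gene SLR/IAA14 that forms no lateral roots. NAA, a synthetic auxin, was given at 10 µM. RNA came from the root between its meristem and the hypocotyl. Roughly 1500 seedlings were pooled for a time point, so each array averages many cell types and plants. Mock arrays of slr-1 and mock arrays at 2 h were not analysed here, so NAA and the time since transfer cannot be told apart in slr-1 or at 2 h.

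Cytochrome P450s are haem enzymes that insert oxygen into their substrates with electrons from a reductase, and in plants most of them are bound to the endoplasmic reticulum. They act in the synthesis and breakdown of hormones, lignin precursors, wax and suberin, sterols and defence compounds. The CYP71B subfamily is large in Arabidopsis and lies partly in tandem clusters. Its best known member, CYP71B15 (PAD3), which is not among the probe sets described here, makes the defence compound camalexin. CYP71B6 converts indole-3-acetonitrile, a compound related to indole glucosinolates, camalexin and auxin. CYP84A4 acts in the synthesis of arabidopyrones, CYP79A2 makes phenylacetaldoxime from phenylalanine, and CYP78A9 promotes growth of floral organs and seeds. For the other CYP71B genes described here no role is given.

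The annotation placed most members in neighbour groups, counted as members with at most 10 annotated genes between one and the next (RefSeq TAIR10.1 gene order, used for neighbourhood alone because the array data name no genome build). On chromosome 3, 11 CYP71B members ran from CYP71B16 to CYP71B37, and 4 of them were tested. CYP71B5 and CYP71B31 made another group on chromosome 3, with 2 genes between them. On chromosome 1, CYP71B27, CYP71B28 and CYP71B29 followed each other with at most 1 gene in between. CYP71B27 and CYP51G2 are annotated there as transcribed pseudogenes. All 22 probe sets carry the plain suffix of a set designed for 1 gene, but related CYP71B transcripts could still hybridise to one another's probes, which was not tested.

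The values are MAS5 signal intensities, and the number of arrays limits the precision. The trimmed mean was 1000.1 on every array, replicates correlated at 0.951 to 0.977 across tested probe sets, and GAPDH had a 3' to 5' signal ratio of 1.16 on slr-1 0 h replicate 2 against 0.546 to 0.742 on the other arrays. The maximum signal was 29350 on slr-1 6 h NAA replicate 2 and 58837 or more on the others. Of 24 listed root segment markers the annotation table named 3, the root hair expansins EXPA7 and EXPA18 and also COB, and all 3 were tested. Both expansins were low throughout slr-1: EXPA7 had signals of 26.2 to 96.5 on the 6 slr-1 arrays against 54.5 to 547 on the 8 Col-0 arrays, and EXPA18 of 22.4 to 142 against 137 to 772. At 0 h EXPA18 was lower in slr-1 than in Col-0 (change -2.29, adjusted p = 0.0347), while EXPA7 did not pass (change -1.19, adjusted p = 0.274). Of 11 genes listed for green tissue, 4 were named in the table (LHCB4.2, PSAN, CHLM and TRY), TRY was below the filter, and their summed signal was highest in Col-0 at 0 h. The 3 root markers summed to 7590 to 8272 in Col-0 at 0 h, 4558 to 5316 after 6 h of NAA, 9810 to 11385 after mock treatment, and 5182 to 7613 over the slr-1 arrays, sums that consist mostly of COB, at 4246 to 10111. None of the 8 listed markers of root meristem and cap was named in the table.

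A probe set was tested where both arrays of at least 1 group exceeded a signal of 218.1, the pooled 40th percentile. This left 14882 probe sets and 9 of the 22 P450s. They are CYP84A4 and 8 CYP71B genes (CYP71B5, CYP71B6, CYP71B23, CYP71B26, CYP71B28, CYP71B29, CYP71B34 and CYP71B37). CYP71B6, CYP71B23, CYP71B26, CYP71B28, CYP71B29 and CYP71B34 exceeded the filter in all 7 groups. CYP71B37 exceeded it in 4 groups, CYP71B5 in the 3 slr-1 groups and CYP84A4 in Col-0 at 0 h alone. Because CYP71B5, CYP84A4 and CYP71B37 were tested only through the groups in which they were high, counts and medians over the 9 genes are descriptions. Each call of CYP71B37 sets a group in which it passed the filter against Col-0 after 6 h of NAA, in which it did not. Changes are log2 differences of signal plus 18.9 with their standard error (SE), and a gene is said to have risen or fallen where the limma p-value, adjusted over all 14882 probe sets, was under 0.05.

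**Figure D1:**
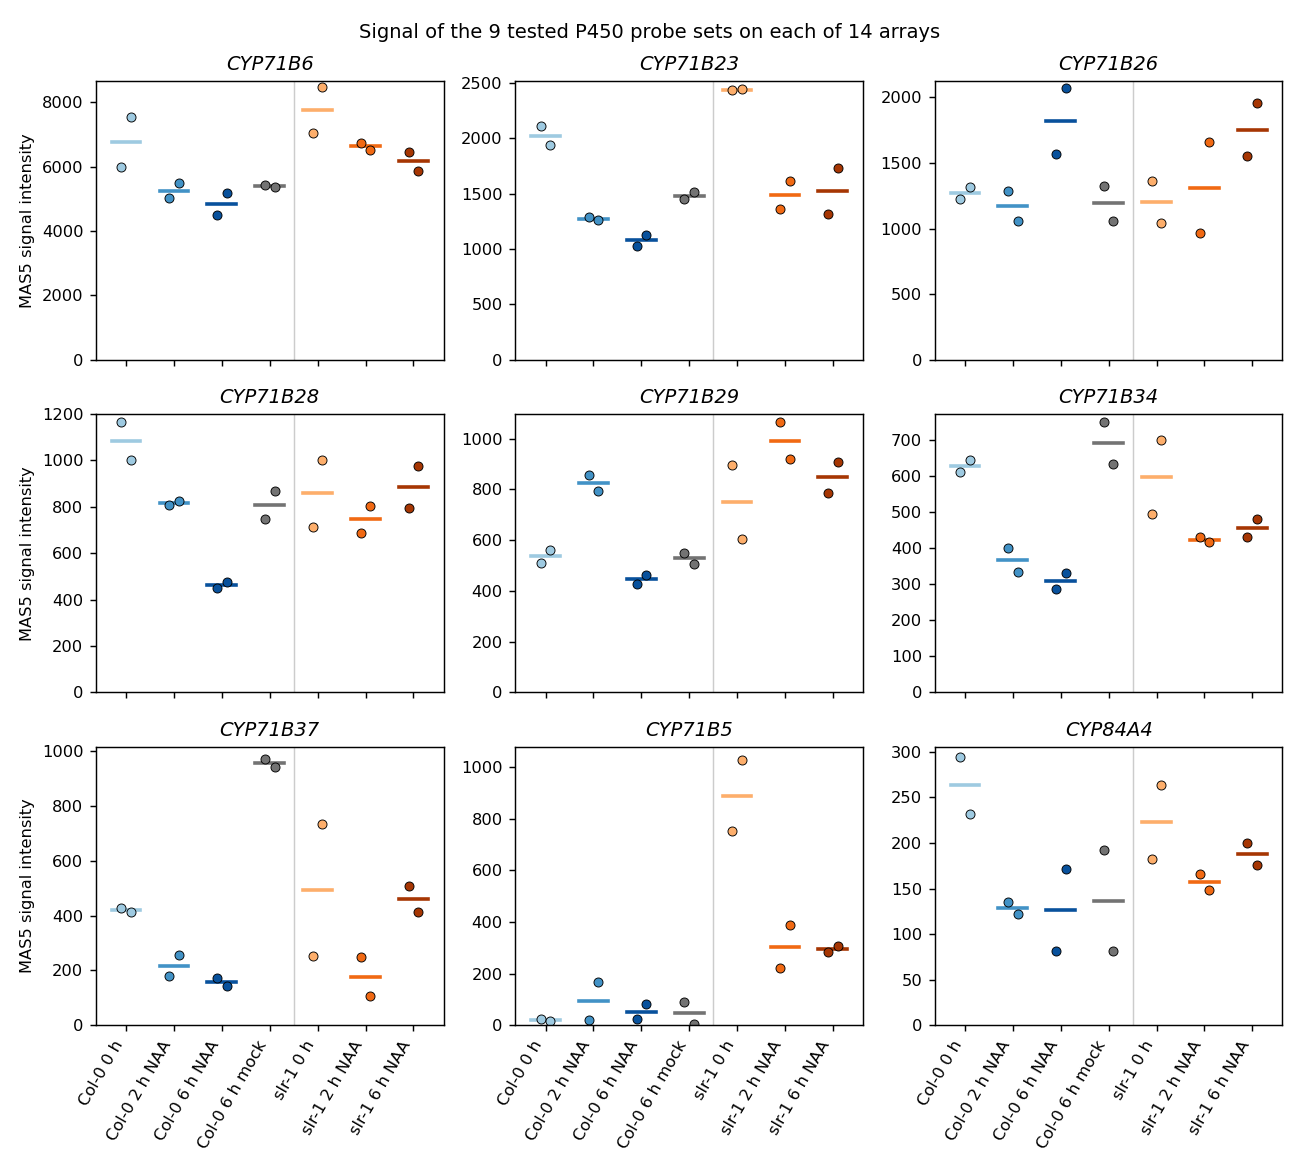
MAS5 signal intensity (linear axes from 0) of the 9 tested P450 probe sets, with 1 point for each of the 14 arrays and a line at the mean of the 2 arrays of a group. CYP71B5 is low in the Col-0 groups and reaches 1027 in slr-1 at 0 h, whereas CYP71B37 is highest in Col-0 after mock treatment, at 973 and 942.

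The first comparison asked which P450s had changed early, after 2 h of NAA in Col-0. CYP71B23 and CYP71B34 fell and CYP71B29 rose, 3 of the 9 tested genes, against 17.6% of all tested probe sets (9.75% higher and 7.85% lower). The median change of the 9 genes was -0.39, beside -0.05 over all tested probe sets. Without CYP84A4, which was tested only through Col-0 at 0 h, the median of the 8 CYP71B genes was -0.37. In the same samples the summed signal of the 4 green tissue markers went from 6919 to 7026 at 0 h to 2248 to 2403, and its part in these changes was not tested. As in any bulk sample, fewer cells of a type and less RNA per cell cannot be told apart.

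CYP71B23 had signals of 2109 and 1942 at 0 h and of 1289 and 1260 after 2 h in Col-0. It was lower on both treated arrays, by 0.66 on the log2 scale (change -0.66, SE 0.15, adjusted p = 0.00829). CYP71B34 went from 611 and 645 to 401 and 335 (change -0.75, SE 0.21, adjusted p = 0.0265). Its replicates did not overlap between the groups. CYP71B29 had 512 and 561 at 0 h and 858 and 794 after 2 h (change 0.61, SE 0.20, adjusted p = 0.0473). It was the only tested P450 called higher, and its call was lost in 12 of the 14 fits that left out 1 array (adjusted p 0.0212 to 0.214), with no filter on low signals (0.0737) and with no variance trend (0.0522). The count of 3 was 0 when replicate 1 of the untreated Col-0 arrays or replicate 2 of those at 2 h was left out. It was 1 when the other untreated array or the other 2 h array was left out. In these fits a group is a single array, assumed to vary like the other groups. CYP71B29 lies directly beside CYP71B28, whose change at 2 h was -0.39 (95% interval -0.81 to 0.02, adjusted p = 0.188).

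After 6 h of NAA in Col-0, CYP71B6, CYP71B23, CYP71B28, CYP71B34 and CYP71B37 had fallen. These were 5 of the 9 tested genes, while 26.3% of all tested probe sets were lower and 48.5% changed in either direction. The median of the 9 genes was -0.90 and that of all tested probe sets -0.11. Without CYP84A4, whose selection through Col-0 at 0 h builds in a fall, the median of the 8 CYP71B genes was -0.69. The green tissue markers summed to 781 to 803 after 6 h, and their part was not tested.

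CYP71B28 went from 1165 and 1001 at 0 h to 449 and 476, with no overlap. Its change was -1.19 (SE 0.19, adjusted p = 1.67e-04), a 2.28-fold fall. CYP71B34 reached 286 and 331, a change of -0.99 (SE 0.21, adjusted p = 0.00162). CYP71B23 reached 1031 and 1124, a change of -0.90 (SE 0.15, adjusted p = 2.48e-04). The calls of these 3 genes at 6 h held in each of the 14 fits without 1 array.

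CYP71B37, the last of the chromosome 3 run, went from 429 and 412 to 174 and 144 (change -1.31, SE 0.42, adjusted p = 0.0194). It passed the filter at 0 h and not after 6 h of NAA. Both treated arrays were below both at 0 h, but the call ended in 4 fits without 1 array, those that left out any 1 of the 4 arrays compared (adjusted p up to 0.0938). CYP71B6, the enzyme acting on indole-3-acetonitrile, had 5976 and 7536 at 0 h and 4477 and 5165 after 6 h (change -0.48, SE 0.15, adjusted p = 0.0172). Its call was lost when replicate 2 at 0 h (adjusted p = 0.179) or replicate 1 at 6 h (adjusted p = 0.141) was left out, and the count of 5 was then 3.

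CYP71B26 went the other way in value. It had 1228 and 1320 at 0 h and 1572 and 2070 after 6 h, all higher, but the change of 0.50 (SE 0.24, 95% interval -0.03 to 1.02, adjusted p = 0.107) did not pass. CYP71B26 and CYP71B34 have 1 annotated gene between them. CYP71B29 had returned to 427 and 464 (change from 0 h -0.26, SE 0.20, adjusted p = 0.298). CYP84A4 had 295 and 232 at 0 h and 81.6 and 172 after 6 h, and its change of -1.02 (SE 0.42) had an adjusted p of 0.0621. CYP71B5 stayed between 14.7 and 166 on all Col-0 arrays at 0 h, 2 h and 6 h of NAA.

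From 2 h to 6 h of NAA in Col-0, CYP71B28 and CYP71B29 fell, 2 of 9 genes, against 17.6% of all tested probe sets lower and 33.1% changed in either direction. CYP71B29 fell by 0.86 (SE 0.20, adjusted p = 0.0041) and CYP71B28 by 0.80 (SE 0.19, adjusted p = 0.00591). The 2 h and 6 h arrays did not overlap for either gene. The 2 genes lie side by side, but 22.2% of the tested members lower is close to the 17.6% over all tested probe sets. Nothing is therefore read from their position. CYP71B23 and CYP71B34 each changed by -0.24 in that interval (SE 0.15 and 0.21) and did not pass.

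**Figure D2:**
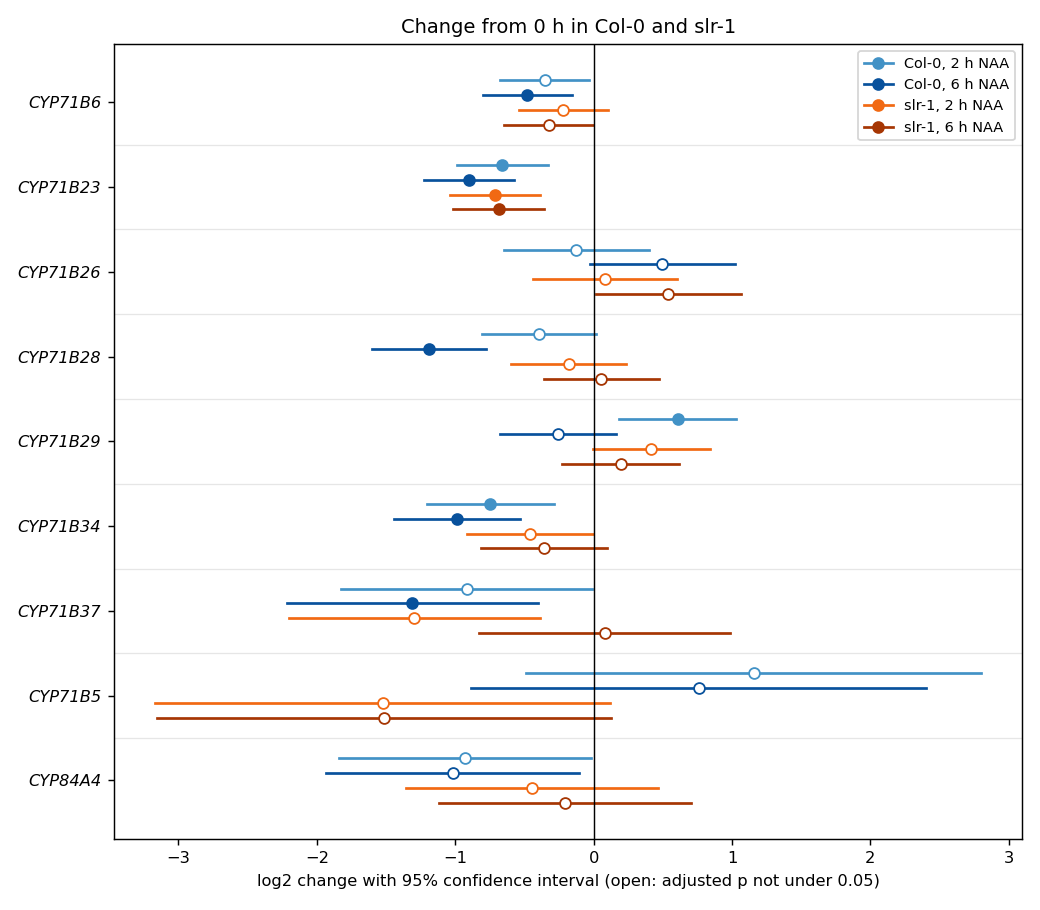
Log2 change from 0 h with its 95% confidence interval for the 9 tested P450 probe sets, for 2 h and 6 h of treatment, in Col-0 and in slr-1; filled points have an adjusted p under 0.05. CYP71B23 is filled in all 4 comparisons, while CYP71B28 is filled only in Col-0 at 6 h, at -1.19.

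The comparison of 6 h NAA with 6 h mock in Col-0 asked which differences went with NAA at the same time after transfer. CYP71B23, CYP71B28, CYP71B34 and CYP71B37 were lower with NAA, 4 of 9 genes, against 24.8% of all tested probe sets lower and 45.4% changed in either direction. CYP71B37 had 973 and 942 after mock treatment and 174 and 144 after NAA, a change of -2.46 (SE 0.42, adjusted p = 3.09e-04), or 5.51-fold. In the 14 fits without 1 array its change ran from -2.59 to -2.34. CYP71B37 passed the filter after mock treatment and not after 6 h of NAA, so its selection and this difference are not independent. CYP71B34 had 750 and 633 after mock treatment against 286 and 331 (change -1.12, SE 0.21, adjusted p = 7.06e-04). CYP71B28 had 748 and 868 against 449 and 476 (change -0.78, SE 0.19, adjusted p = 0.0046). Neither gene's groups overlapped, and neither lost its call without 1 array.

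CYP71B23 had 1451 and 1513 after mock treatment against 1031 and 1124 with NAA (change -0.45, SE 0.15, adjusted p = 0.0254). That call was lost without any 1 of the 4 arrays compared (adjusted p up to 0.142). CYP71B6 differed by -0.17 (95% interval -0.49 to 0.16, adjusted p = 0.391), so its lower level at 6 h was called against 0 h alone. CYP71B26 was higher with NAA on both arrays, 1572 and 2070 against 1328 and 1059, without passing (change 0.60, SE 0.24, adjusted p = 0.0593). The summed green markers were 4384 to 4954 after mock treatment and 781 to 803 with NAA, and of the root segment markers COB (change -1.08, adjusted p = 7.96e-05) and EXPA7 (change -2.05, adjusted p = 0.0242) were also lower with NAA. Their part in these differences was not tested.

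After 6 h of mock treatment against 0 h, 0 of the 9 P450s passed with limma, against 5.08% of all tested probe sets. The unadjusted limma p was under 0.05 for CYP71B23, CYP71B28, CYP71B37 and CYP84A4, without the share of all tested probe sets to set beside it. CYP84A4 was tested only through Col-0 at 0 h, so a fall from 0 h was built into its selection. CYP71B37 had 429 and 412 at 0 h and 973 and 942 after mock treatment. Its arrays did not overlap, but with SE 0.42 the change of 1.15 (95% interval 0.25 to 2.06) had an adjusted p of 0.143. It passed only in the fit restricted to these 2 groups. CYP71B23 changed by -0.45 (95% interval -0.77 to -0.12, adjusted p = 0.117) and CYP71B28 by -0.41 (95% interval -0.83 to 0.00, adjusted p = 0.26). CYP71B34 changed by 0.13 (95% interval -0.33 to 0.59). The comparisons of NAA with 0 h, of NAA with mock and of mock with 0 h share arrays, so their values are given side by side without a measure of their likeness.

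**Figure D3:**
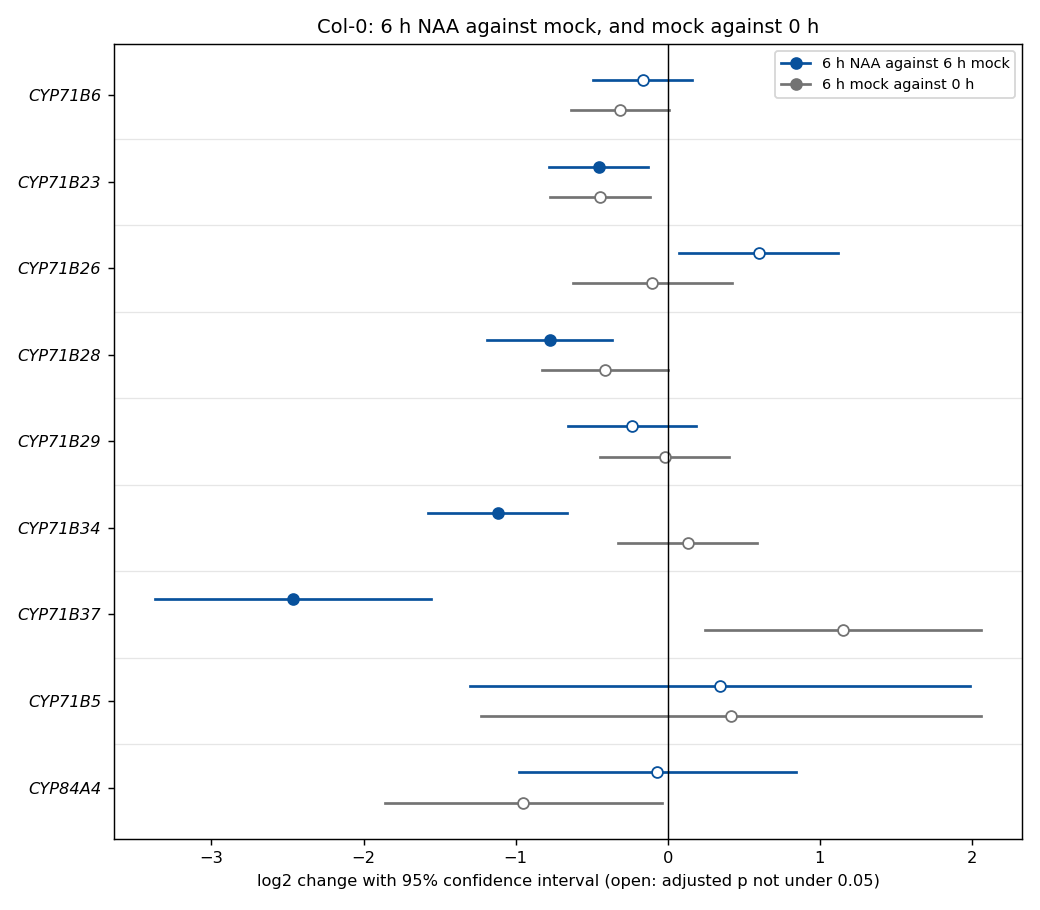
Log2 difference with its 95% confidence interval for the 9 tested P450 probe sets in Col-0, for 6 h NAA against 6 h mock and for 6 h mock against 0 h; filled points have an adjusted p under 0.05. CYP71B37 lies at -2.46 in the first and at 1.15 in the second, and CYP71B34 at -1.12 and 0.13.

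The mutant was compared with the wild type at 0 h to ask which P450s differed between the genotypes before NAA. CYP71B5 was higher in slr-1, 1 of the 9 tested genes, against 6.63% of all tested probe sets higher and 13.4% changed in either direction. Its signals were 25.1 and 14.7 in Col-0 and 751 and 1027 in slr-1 at 0 h. The change of 4.54 (SE 0.76, adjusted p = 0.00201) depends on the value added before the log, because the Col-0 signals lie near it, and was 5.44 with 1 added in its place (adjusted p = 0.00821). It held in each of the 14 fits without 1 array, at 4.32 to 4.77. Since CYP71B5 entered the test only through slr-1, some difference between the genotypes was built into its selection.

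CYP71B5 was above 200 on all 6 slr-1 arrays and between 5.3 and 166 on all 8 Col-0 arrays. With NAA its slr-1 signals were 221 and 388 at 2 h and 283 and 308 at 6 h, below both arrays at 0 h. The changes in slr-1, -1.52 at 2 h (95% interval -3.17 to 0.12, adjusted p = 0.222) and -1.51 at 6 h (95% interval -3.16 to 0.13, adjusted p = 0.212), did not pass. In the Col-0 groups, replicates differed as widely as 20.8 and 166 at 2 h of NAA and 90.0 and 5.3 after mock treatment. CYP71B31, which has 2 genes between it and CYP71B5, had signals of 12.6 and 7.0 in slr-1 at 0 h and of 11.8 and 18.6 in Col-0.

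For the other tested P450s the genotypes did not pass before NAA. CYP71B29 was higher on both slr-1 arrays, 895 and 605 against 512 and 561 (change 0.45, 95% interval 0.02 to 0.87, adjusted p = 0.154). CYP71B23 was also higher on both, 2435 and 2448 against 2109 and 1942 (change 0.27, adjusted p = 0.271). For CYP71B37 the slr-1 arrays, 252 and 735, lay on either side of the Col-0 arrays. The green markers summed to 3264 to 4160 in slr-1 and to 6919 to 7026 in Col-0 at 0 h, EXPA18 was lower in slr-1 as given above, and the part of these markers was not tested.

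In slr-1, CYP71B23 fell at both times after NAA, and no other tested P450 passed the threshold against 0 h. At 2 h this was 1 of 9 genes, against 5.45% of all tested probe sets lower and 12.3% changed in either direction. At 6 h it was 1 of 9 genes, against 6.26% lower and 14.2% changed. CYP71B23 had 2435 and 2448 at 0 h, 1363 and 1616 at 2 h, and 1317 and 1729 at 6 h. Its changes were -0.71 (SE 0.15, adjusted p = 0.00731) and -0.69 (SE 0.15, adjusted p = 0.00853). All 4 treated arrays were below both at 0 h. The call at 2 h was lost without slr-1 2 h NAA replicate 1 (adjusted p = 0.0947) and that at 6 h without slr-1 6 h NAA replicate 1 (adjusted p = 0.102), when the count was 0. Without slr-1 0 h replicate 1, the array with the high GAPDH ratio alone stood for slr-1 at 0 h. In that fit CYP71B29, as a rise, and CYP71B37, as a fall, were called at 2 h too. The median of the 9 genes was -0.44 at 2 h and -0.21 at 6 h, beside -0.05 and 0.02 over all tested probe sets. Both medians are the values of CYP84A4, and without it the medians of the 8 CYP71B genes were -0.34 and -0.13. The green markers summed to 1594 to 1663 at 2 h and to 1373 to 1779 at 6 h in slr-1, and their part was not tested.

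CYP71B37 had 248 and 108 at 2 h and 508 and 414 at 6 h in slr-1. At 2 h its change from 0 h was -1.30 (95% interval -2.20 to -0.39, adjusted p = 0.0608), with slr-1 arrays of 252 and 735 at 0 h that differed widely from each other. From 2 h to 6 h in slr-1 none of the 9 genes passed with limma, against 1.22% of all tested probe sets. CYP71B37 alone had an unadjusted limma p under 0.05 there (change 1.38, 95% interval 0.47 to 2.28, adjusted p = 0.135), with no share over all tested probe sets beside it. In slr-1 this gene passed the filter at 0 h and 6 h and not at 2 h, so its selection and these differences are not independent. CYP71B34 was at 431 and 416 at 2 h and at 431 and 482 at 6 h, below 494 and 702 at 0 h, without passing at either time (changes of -0.46 and -0.36).

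Whether the response differed between the genotypes was tested directly as the change in slr-1 minus the change in Col-0. At 6 h CYP71B28 passed, 1 of 9 genes, against 14.9% of all tested probe sets higher and 27.5% in either direction. Its response difference was 1.25 (SE 0.27, adjusted p = 0.0041), which held in each of the 14 fits without 1 array, at 1.01 to 1.49. In Col-0 it went from 1165 and 1001 to 449 and 476, and in slr-1 from 712 and 1003 to 793 and 976. The slr-1 change was 0.06 (95% interval -0.36 to 0.47). The 2 slr-1 arrays at 0 h that enter this difference are themselves far apart, and the lower of them is below the Col-0 arrays. All 3 tested green tissue markers were also called higher in the response difference at 6 h (LHCB4.2 at 3.20, PSAN at 2.32 and CHLM at 1.56), as was COB (0.74, adjusted p = 0.0239). Their part in the CYP71B28 difference was not tested.

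CYP71B37 had the larger response difference at 6 h, 1.39, but with SE 0.60 it did not pass (adjusted p = 0.0997). It passed without slr-1 0 h replicate 2, the array with the high GAPDH ratio, when the difference was 2.13 (adjusted p = 0.00936) and the count was 2. For CYP71B23, which fell in both genotypes, the difference was -0.05 at 2 h (95% interval -0.51 to 0.41) and 0.21 at 6 h (95% interval -0.25 to 0.67). For CYP71B34 the difference at 6 h was 0.63 (95% interval -0.02 to 1.27, adjusted p = 0.14). For CYP71B29 it was 0.45 and did not pass (limma adjusted p = 0.342 with no filter on low signals). At 2 h, 0 of the 9 genes passed with limma, against 3.18% of all tested probe sets. CYP71B5 alone had an unadjusted limma p under 0.05 (difference -2.68, SE 1.08, adjusted p = 0.217), with no share over all tested probe sets beside it. CYP71B5 was tested only through slr-1, and its Col-0 signals at 0 h lie near the value added before the log. With 1 added in its place the difference was -3.16 (SE 1.62, limma adjusted p = 0.353).

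The levels of the genotypes under NAA were compared in a pair of comparisons added after the values had been seen. After 6 h, CYP71B5, CYP71B23, CYP71B28, CYP71B29 and CYP71B37 were higher in slr-1 than in Col-0, 5 of 9 genes, against 19.4% of all tested probe sets higher and 34.6% changed in either direction. CYP71B28 was higher by 0.90 (SE 0.19, adjusted p = 0.00277) and CYP71B29, with 786 and 909 against 427 and 464, also by 0.90 (SE 0.20, adjusted p = 0.00324). Both held without any 1 array. At 0 h CYP71B29 had already differed by 0.45 without passing, and its response difference at 6 h did not pass. CYP71B37 was higher by 1.43 (SE 0.42, adjusted p = 0.0179), CYP71B23 by 0.48 (SE 0.15, adjusted p = 0.0258) and CYP71B5 by 2.27 (SE 0.76, adjusted p = 0.034). A difference in this direction was built into the selection of CYP71B5. Its call was lost with 1 added before the log (0.0822) and with no filter (0.0527), which leaves 4 genes in the count. CYP71B37, among these 4, passed the filter in slr-1 at this time but not in Col-0, so the 4 are a description too. Leaving out 1 of the 4 arrays ended some of the calls of CYP71B37, CYP71B23 and CYP71B5. The count was 2 when replicate 1 of Col-0 or replicate 2 of slr-1 at this time was left out, and 3 for either of the remaining arrays. The 3 tested green tissue markers were higher in slr-1 too, and the summed signal of all 4 was 1373 to 1779 against 781 to 803 in Col-0. Their part was not tested. After 2 h, 0 of the 9 passed with limma, against 6.38% of all tested probe sets. The unadjusted limma p was under 0.05 for CYP71B5 and CYP71B6, with no share over all tested probe sets beside it. For CYP71B5 a higher level in slr-1 was built into its selection.

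The order of the group levels differed among the genes that changed. CYP71B28 was lowest in Col-0 after 6 h of NAA, at 463 ± 19.1 (SD, n = 2), and the other 6 groups lay between 746 ± 80.6 and 1083 ± 116. CYP71B29 was also lowest there, at 446 ± 26.0, but next to Col-0 after mock treatment (528 ± 31.8) and at 0 h (536 ± 34.6), from which it did not differ past the threshold. CYP71B29 was highest in slr-1 after 2 h, at 992 ± 105. CYP71B23 was highest in slr-1 at 0 h (2441 ± 9.2) and lowest in Col-0 after 6 h of NAA (1078 ± 66.3). CYP71B37 was highest in Col-0 after mock treatment (958 ± 21.8), above slr-1 at 0 h (493 ± 342), slr-1 after 6 h (461 ± 66.3) and Col-0 at 0 h (420 ± 12.1). The SD of the slr-1 0 h group covers the 2 levels that follow it.

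The other 13 P450s were not tested because no group had both arrays above 218.1. They are CYP51G2, CYP78A9, CYP79A2 and 10 CYP71B genes, and their signals ran from 2.3 to 234. Of these, 12 were below the filter signal on every array, and 3 (CYP71B21, CYP71B31 and CYP79A2) had a median below 18.9, the value added before the log. CYP51G2 exceeded the filter on 3 of 14 arrays, each in a different group. CYP79A2, the benzylglucosinolate enzyme, was between 5.9 and 17.3 on all arrays but Col-0 6 h mock replicate 1, where it was 47.8. CYP71B35 and CYP71B36, between CYP71B34 and CYP71B37 in the chromosome 3 run, had signals of 7.4 to 114 and 2.9 to 114.

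CYP78A9 was nearest to the filter from below, with 215 and 202 in Col-0 at 0 h, while CYP84A4 just passed it, with 295 and 232 there. CYP78A9 had 37.7 and 48.0 after 2 h of NAA, 111 and 154 after 6 h, and 132 and 156 after mock treatment. In slr-1 it had 165 and 77.7 at 0 h, 46.8 and 73.7 at 2 h, and 82.6 and 34.7 at 6 h. With no filter on low signals, the change at 2 h in Col-0 was -1.89 (SE 0.48, adjusted p = 0.0223), and the response difference at 2 h was 1.11 (SE 0.67, adjusted p = 0.544). CYP78A9 was the only one of the 13 to pass in any comparison without the filter. In that fit 2326 of all 22746 probe sets passed for Col-0 at 2 h, 1012 of them lower.

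**Figure D4:**
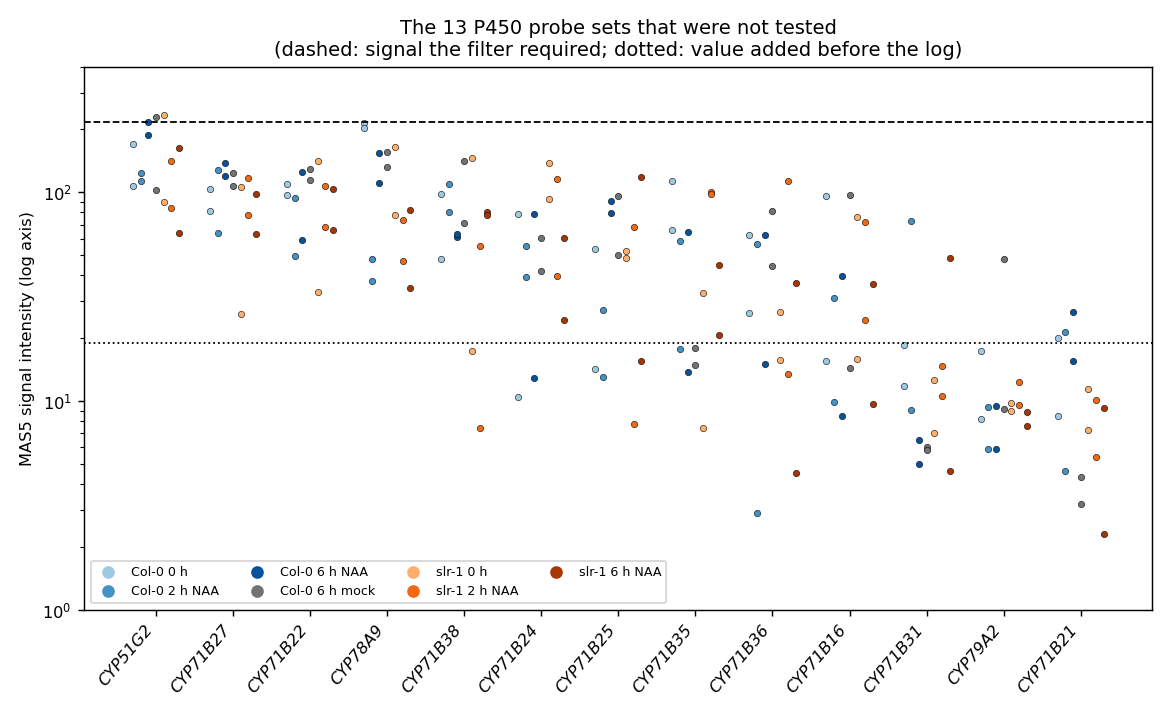
MAS5 signal intensity (log axis) of the 13 P450 probe sets below the filter, with 1 point for each of the 14 arrays, coloured by group; the dashed line is the filter signal of 218.1 and the dotted line the added value of 18.9. CYP78A9 has its 2 highest points in Col-0 at 0 h, at 215 and 202, and most points of CYP79A2 and CYP71B21 lie below the dotted line.

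Genes of the pathways that the named P450s belong to were few in the annotation. Of 20 redox partners of P450s listed (reductases and cytochrome b5 genes), 0 were named in the table, so they were not analysed here. Of 30 listed phenylpropanoid genes other than P450s, the pathway of the CYP84A subfamily, 6 were named and 5 were tested. After 2 h of NAA 2 of the 5 were higher in Col-0 (UGT84A1 and UGT84A3, glucosyltransferases of hydroxycinnamates), against 9.75% of all tested probe sets, and 4 in slr-1, against 6.86%. After 6 h in Col-0 UGT84A1 was higher, and CCR2, a cinnamoyl-CoA reductase, and HCT, a hydroxycinnamoyl transferase, were lower (changes of -1.33 and -0.70), 1 gene higher against 22.3% of all tested probe sets and 2 lower against 26.3%. Against 6 h mock, 0 of the 5 were higher with NAA, against 20.6% of all tested probe sets. The 3 that were lower (CCR2, HCT and UGT84A1) stand against 24.8% of all tested probe sets lower. UGT84A1 had 26.7 and 19.0 at 0 h, 330 and 462 after mock treatment and 70.7 and 237 after 6 h of NAA. It was thus higher after mock treatment than at 0 h (change 3.30, adjusted p = 0.00314) and lower with NAA than after mock treatment (change -1.43, adjusted p = 0.0353). The size of 3.30 depends on the value added before the log, because the 0 h signals lie near it. In slr-1 CCR2 rose at 6 h by 1.54, and its response difference was 2.87 (SE 0.31, adjusted p = 2.83e-05). The genotypes started from unequal levels of CCR2, with 351 and 494 in slr-1 at 0 h and 1274 and 1547 in Col-0. After 6 h of NAA its signals were 1145 and 1366 in slr-1 and 477 and 628 in Col-0.

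Of 37 listed glucosinolate genes other than P450s, 3 were named and 2 were tested, BCAT4 (methionine chain elongation) and UGT74B1 (a glucosyltransferase of glucosinolate synthesis). Both were lower after 6 h of NAA in Col-0 than after mock treatment (changes of -4.66 and -1.81), against 24.8% of all tested probe sets, and both were higher after mock treatment than at 0 h (2.06 and 0.97), against 2.98%. Both were also higher in slr-1 than in Col-0 at 0 h (4.10 and 0.77), against 6.63%. BCAT4 signals in Col-0 at 0 h were 1943 and 848, and in slr-1 22826 and 21947. In Col-0 they were 10809 and 2724 after mock treatment, far apart from each other, and 264 and 145 after 6 h of NAA. CYP79A2, the glucosinolate P450 among the members, was at 17.3 or less on all arrays but 1, so no comparison with these genes was made.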

How the data were processed

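Per the submitters' processing notes, MAS5 was the software behind the deposited intensity values, which are unlogged, with 1 for each probe set on an array. Its version and settings are not stated. Groups came from the sample titles. Both mock samples carry a description of tissue from a different organism, but their titles, sources and protocols give the root segment, so they were used as Col-0 mock. The 64 control probe sets were left out. Signals were transformed as log2 of signal plus 18.9, the pooled 10th percentile, with no further normalization. Group means over all 14 arrays were fitted for 14882 probe sets with limma 3.58.1 in R 4.3.3 (eBayes with a trend; residual degrees of freedom 7, prior 6.57), a procedure tested on simulated data. From it came 11 planned and 2 added comparisons, with Benjamini-Hochberg adjustment over all tested probe sets and a threshold of 0.05. No exact permutation test was run, since with 2 arrays a group its smallest p is 0.333. The members and lists were chosen with earlier results of these data known. By the rule for named genes any member may be named, and of the other lists up to 4 genes past the threshold with the largest change. Alternatives were quantile normalization, 1 as added value, no filter or the 60th percentile, the replicate number as a block, only the compared groups, no variance trend, and each array left out. No sequences were used.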

Additional observations from a re-analysis of the deposited data

Results flagged for a closer look

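The change of CYP71B28 from 0 h to 6 h of NAA differed between the genotypes by the test of the difference itself. Its response difference, slr-1 minus Col-0, was 1.25 (SE 0.27, adjusted p = 0.0041 with limma), a test that 27.5% of all tested probe sets passed. Without mock arrays of slr-1, NAA and the time since transfer cannot be told apart in this difference. The slr-1 arrays at 0 h, 712 and 1003, differed more from each other than the Col-0 arrays at 0 h, 1165 and 1001. No group had enough arrays for a search for outlying arrays.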

How the results depend on the processing

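With 2 arrays per group, the calls rest on a pooled spread. The number of called members stayed within 1.5 times in 98 of 104 combinations of comparison and setting other than leaving out 1 array. With only the compared groups in the fit, it was 1 for mock against 0 h, 2 for slr-1 at 2 h, 2 for slr-1 at 6 h and 2 for the response difference at 6 h; the cause was not tested. Without both arrays that stand apart (slr-1 0 h replicate 2 and slr-1 6 h NAA replicate 2, chosen after seeing the data) it was 2 for the response difference at 6 h and 3 for slr-1 against Col-0 at 6 h. Leaving out each array in turn gave 0 to 3 in Col-0 at 2 h, 3 to 6 in Col-0 at 6 h, 1 to 3 in slr-1 at 2 h, 0 to 1 in slr-1 at 6 h, 1 to 2 for the response difference at 6 h, and 2 to 6 for slr-1 against Col-0 at 6 h. Of the values of called genes under all settings, 459 stayed past the threshold, 47 did not, and none changed direction. The CYP71B29 rise at 2 h did not pass with no filter (adjusted p = 0.0737), with no variance trend (0.0522) or with the replicate number as a block (0.055, when the Col-0 2 h count was 2). CYP71B5 at 6 h, slr-1 against Col-0, did not pass with 1 added before the log (0.0822) or with no filter (0.0527). The block changed no other call. Deviations of arrays with the same number correlated at -0.16 to 0.13 over 21 pairs of groups, 3 of them above 0.1, so the numbers were not taken to pair the arrays. Signals near 18.9 limit what can be said of the low members.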
